A study of Homo sapiens with 4 samples.

Results

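The expression of 34 genes of mitosis and the kinetochore was described in 786-O cells with and without a knockout of DEK. The genes were taken by symbol from a list of mitotic regulators, and all 34 were found among the 59409 symbols of a table of TPM (transcripts per 1000000). All 34 also passed the filter on low values, which kept the 15815 genes that reached 1 TPM in 2 or more libraries. 786-O is an established human renal carcinoma line with loss of the tumour suppressor VHL. DEK is a protein of chromatin that can act as a histone chaperone. The DEK knockout group had 2 mRNA libraries. Its cells came from a Cas9-expressing clone made with LentiCas9-Blast virus, which was then infected with LentiGuide-Puro virus carrying guides against DEK and sorted as single cells. The control group had 2 libraries, labelled as negative control and wild type and headed Cas9 in the table. Which guide or clone each knockout library came from, and whether the controls had received a guide virus, is not given in the sources used here. Separate cultures are not stated for the libraries of either group. The p-values therefore rest on the variation among these 4 libraries alone, and that variation may be technical.

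Mitosis is driven by cyclin-dependent kinase 1 with its A and B cyclins, together with Polo-like and Aurora kinases. Chromosomes attach to spindle microtubules through the kinetochore, a protein assembly built on centromeric chromatin, and the spindle assembly checkpoint delays anaphase until every kinetochore is attached. The anaphase-promoting complex then marks cyclin B and securin for destruction. Transcripts of most of these genes accumulate late in the cell cycle, under the MuvB complex with B-MYB and FOXM1, and are held down by the DREAM complex in resting cells. In RNA from whole cultures, fewer cells in mitosis or G2 and less RNA per cell cannot be told apart.

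Many promoters of this class carry a cell cycle genes homology region (CHR), the element that MuvB complexes bind, placed downstream of CCAAT boxes, the sites of the factor NF-Y. RefSeq promoter windows on GRCh38.p14, from 250 bases before to 50 bases after the start, were found for 27 of the 34 genes, and the first was used where a gene had more than 1. AURKA, BIRC5, BUB3, FOXM1, TPX2, TTK and UBE2C had no match. The stretches shown are those of CCNA2 and SPC25, which fell in the knockout, and of CCNB1 and CDC20, a cyclin and an anaphase activator that did not pass the test. Each runs 5′ to 3′ on the strand of the gene over the 150 bases just upstream of the RefSeq start, with CCAAT boxes and CHR matches on either strand in capitals. CCNA2 is at chr4:121823884-121824033 on the minus strand, SPC25 at chr2:168890431-168890580 on the minus strand, CCNB1 at chr5:69167000-69167149 on the plus strand and CDC20 at chr1:43358831-43358980 on the plus strand.
CCNA2: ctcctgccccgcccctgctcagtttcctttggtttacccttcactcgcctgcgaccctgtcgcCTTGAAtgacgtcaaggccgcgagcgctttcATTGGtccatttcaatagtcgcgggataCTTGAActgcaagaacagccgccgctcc
SPC25: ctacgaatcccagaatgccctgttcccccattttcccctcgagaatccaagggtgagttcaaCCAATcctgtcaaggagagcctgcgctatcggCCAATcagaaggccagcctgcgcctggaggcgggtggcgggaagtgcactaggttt
CCNB1: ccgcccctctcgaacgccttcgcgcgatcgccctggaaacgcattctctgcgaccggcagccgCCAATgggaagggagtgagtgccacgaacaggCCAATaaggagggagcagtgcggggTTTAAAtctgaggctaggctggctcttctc
CDC20: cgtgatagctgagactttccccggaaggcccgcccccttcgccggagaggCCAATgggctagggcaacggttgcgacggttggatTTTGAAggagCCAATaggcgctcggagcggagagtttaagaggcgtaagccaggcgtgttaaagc

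The canonical CHR letters TTTGAA, searched on both strands, were in 19 of the 27 promoter windows (70.4%), against 15.2% of all 35116 windows of the same length and 9.40% of the 10046 windows of tested genes. CCAAT was in 22 of the 27 (81.5%), against 34.6% of all windows and 36.7% of those of tested genes. Both motifs together were in 16 of the 27 (59.3%), against 5.90% of all windows and 4.07% of those of tested genes. CCNA2 holds the variant CTTGAA, which starts 28 bases before the RefSeq start, with an inverted CCAAT box from 56 bases before it. CCNB1 holds the variant TTTAAA, which starts 30 bases before the start, with CCAAT boxes from 55 and 87 bases before it. In SPC25, TTTGAA spans the start itself and so lies outside the printed stretch. Variants of the CHR were added after the values were seen. TTTAAA was in 11 of the 27 windows (40.7%), against 12.2% of all windows and 7.41% of those of tested genes. TTCGAA was in 2 (7.41%), against 1.45% and 1.69% in the same order. CTTGAA was in 3 (11.1%), against 11.2% and 6.98%. Counted with the canonical letters, 25 of the 27 windows held at least 1 of the 4. The share was 32.2% of all windows and 22.0% of those of tested genes. AURKB and SPC24 were the windows with none of the 4. The median log2 fold change was -0.35 for genes with TTTGAA and -0.27 for genes without it. For CCAAT it was -0.29 with and -0.42 without the motif, and for both motifs together -0.33 with and -0.34 without. A match describes letters in this window and is not a measured site.

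**Figure D1:**
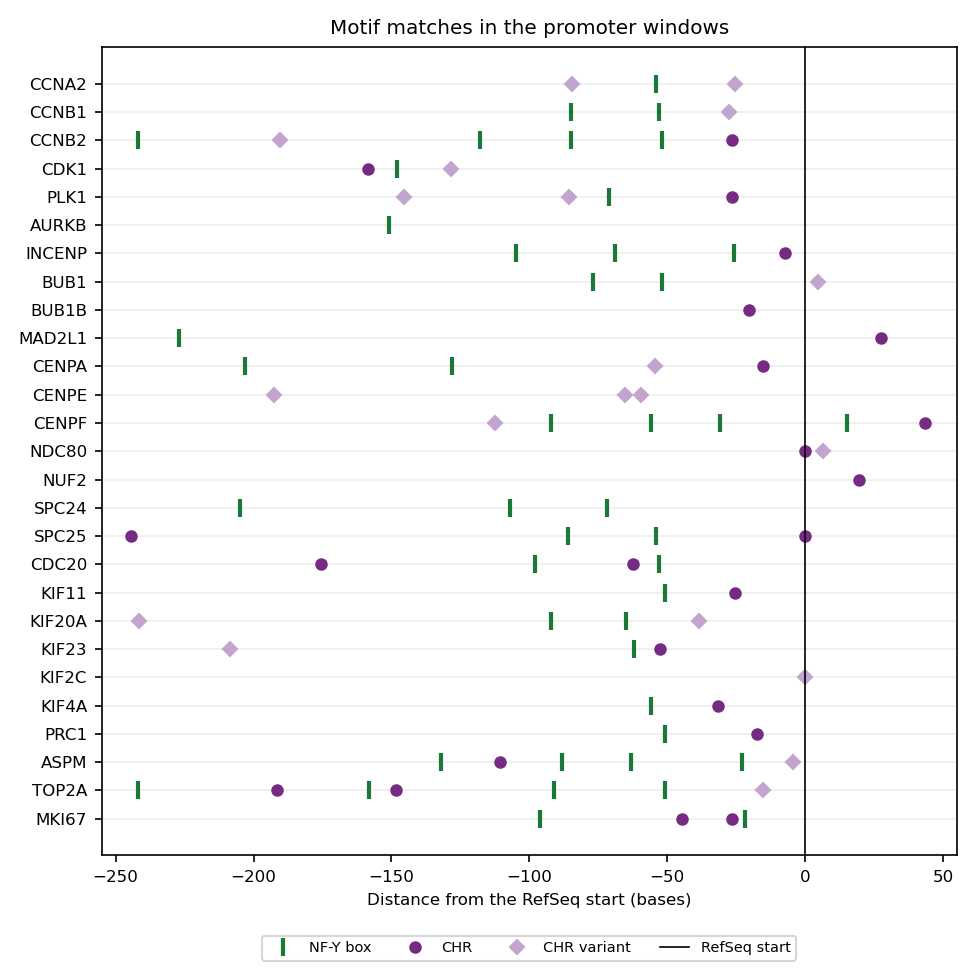
Position of motif matches in the RefSeq promoter windows of 27 genes, as distance in bases from the RefSeq start (vertical line). Green bars are CCAAT (NF-Y) boxes, purple circles TTTGAA (CHR) and pale diamonds its 3 variants; 19 of 27 windows hold TTTGAA and 22 hold CCAAT.

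DEK itself, the targeted gene, was at 31.4 and 15.7 TPM in the knockouts and at 95.0 and 76.3 TPM in the controls. It fell, with -1.89 as the log2 fold change and an SE of 0.33 (limma adjusted p = 0.030). The step size of low TPM values put the depth at 35.8 and 40.1 in the knockouts and at 38.9 and 39.5 in the controls, in units of 1000000 reads. The tubular lineage marker PAX8 was at 140.1 and 160.4 TPM in the knockouts and at 153 and 142 TPM in the controls. Of the 7 markers of that lineage PAX2 fell and KRT18 rose. The 12 markers of leukocytes, endothelium and fibroblasts summed to 1.08 and 1.355 TPM in the knockouts and to 1.07 and 1.66 TPM in the controls, with CD3E at 0 in every library. Every log2 fold change is a knockout minus control difference in log2(TPM + 1), a scale that understates the change of a gene with low TPM.

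Most of the 34 genes were lower in the knockout by a modest amount, and few passed the test. CCNA2 and SPC25 fell and UBE2C rose (limma, Benjamini-Hochberg adjusted p under 0.05), while the other 31 did not pass. That is 2 of 34 lower, where 8.67% of all tested genes were called lower, and 1 of 34 higher, where 9.06% were called higher. The log2 fold change was below 0 for 31 of the 34 genes, against 55.6% of all tested genes. Its median was -0.28, against -0.06 over all tested genes, and its range ran from -1.52 for ASPM to 0.26 for UBE2C. Both knockout libraries lay below both controls for 27 of the 34, against 39.0% of all tested genes. The 34 genes summed to 3235 and 2820 TPM in the knockouts and to 3628 and 3567 TPM in the controls. Genes that share these libraries are not independent of one another, so these shares describe the libraries and carry no test.

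**Figure D2:**
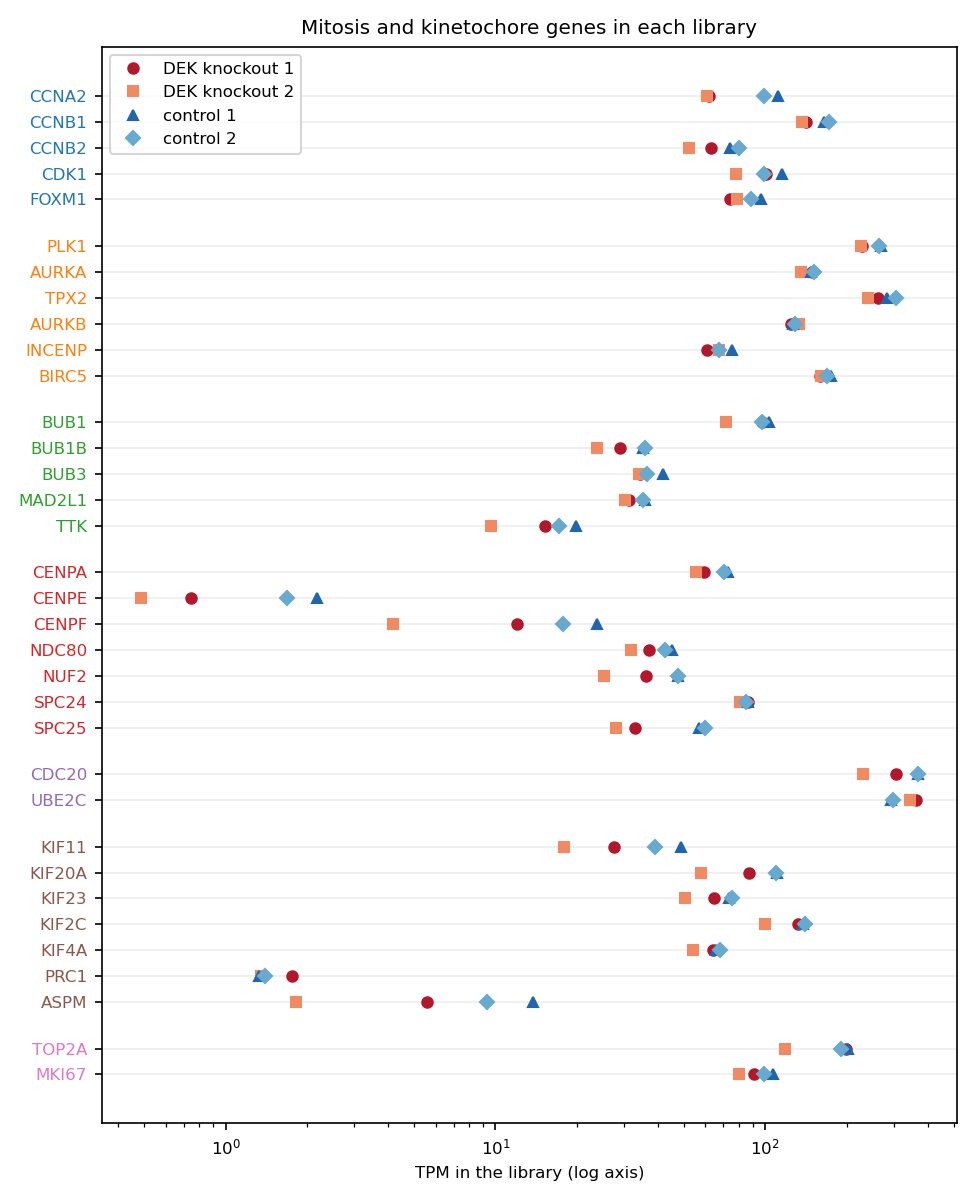
TPM of the 34 genes in each library on a log axis, with red and orange for the DEK knockouts and blue for the controls, and gene names coloured by role. Knockout points lie to the left of both controls for 27 genes and to the right of both for UBE2C alone.

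Among the mitotic cyclins, CCNA2 fell while the B cyclins and their kinase did not pass the test. CCNA2, on chromosome 4 (GRCh38, 121816444 to 121823933), encodes cyclin A2, which acts in S phase and at entry into mitosis. It was at 61.6 and 60.7 TPM in the knockouts and at 111 and 99.1 TPM in the controls. The knockout mean of 61.1 ± 0.672 TPM was 1.72-fold lower than the control mean of 105 ± 8.49 TPM (SD, n = 2 per group), and limma gave a log2 fold change of -0.77 with SE 0.08 (adjusted p = 0.016). The groups did not overlap, and the knockouts were closer to each other than the controls were. CCNB1, cyclin B1, was at 141 and 137 TPM in the knockouts and at 164 and 172 TPM in the controls (log2 fold change -0.27, adjusted p = 0.053). CCNB2, cyclin B2, was at 63.1 and 52.2 TPM in the knockouts and at 73.7 and 79.9 TPM in the controls (log2 fold change -0.41, adjusted p = 0.071). For both B cyclins the groups did not overlap. CDK1, their catalytic partner, was at 101 and 77.9 TPM in the knockouts and at 116 and 99.0 TPM in the controls, and here the groups overlapped. FOXM1, the transcription factor that activates many of these genes, was at 73.9 and 78.3 TPM in the knockouts and at 96.3 and 88.9 TPM in the controls (log2 fold change -0.28, adjusted p = 0.073).

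The Polo and Aurora kinases and their partners showed the smallest differences of the roles with 5 or more genes, with a median log2 fold change of -0.13, and 0 of 6 passed the test. PLK1, the Polo-like kinase of mitotic entry, was at 229 and 226 TPM in the knockouts and at 269 and 264 TPM in the controls (log2 fold change -0.23, adjusted p = 0.059). AURKA, the kinase of the spindle poles, was at 149 and 136 TPM in the knockouts and at 148 and 152 TPM in the controls. TPX2, which activates AURKA on the spindle, was at 261 and 239 TPM in the knockouts and at 282 and 304 TPM in the controls. The groups were apart for PLK1 and TPX2 and overlapped for AURKA. Of the chromosomal passenger complex, which corrects faulty attachments, the kinase AURKB was at 125 and 134 TPM in the knockouts and at 127 and 129 TPM in the controls (log2 fold change 0.02, SE 0.07). Its sign turned to -0.06 once the GC trend of each library was removed. INCENP, the scaffold of that complex, was at 60.9 and 67.3 TPM in the knockouts and at 75.5 and 67.5 TPM in the controls. BIRC5, its survivin subunit, was at 160.1 and 160.5 TPM in the knockouts and at 175 and 169 TPM in the controls. For INCENP and BIRC5 both knockouts lay just below both controls, with log2 fold changes of -0.15 and -0.10 that did not pass the test.

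All 5 genes of the spindle assembly checkpoint lay below both controls in both knockouts, and 0 of 5 passed the test. TTK, the MPS1 kinase that starts checkpoint signalling, was at 15.3 and 9.67 TPM in the knockouts and at 19.8 and 17.3 TPM in the controls (log2 fold change -0.56, adjusted p = 0.15). BUB1B, the checkpoint protein BUBR1, was at 28.9 and 23.8 TPM in the knockouts and at 35.2 and 35.9 TPM in the controls (log2 fold change -0.42, adjusted p = 0.071). BUB1, a kinetochore kinase, was at 97.3 TPM in knockout 1, level with the 97.3 TPM of control 2, and at 71.5 TPM in knockout 2, with 103 TPM in control 1. Knockout 2 was thus the low library for TTK and BUB1. MAD2L1, whose product MAD2 inhibits CDC20, was at 31.4 and 30.3 TPM in the knockouts and at 36.0 and 35.1 TPM in the controls (log2 fold change -0.20). BUB3, a partner of BUB1 and BUBR1, was at 34.4 and 33.97 TPM in the knockouts and at 41.8 and 36.3 TPM in the controls (log2 fold change -0.18). For MAD2L1 and BUB3 the log2 fold change turned to 0.10 and 0.03 with the GC trend removed.

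Of 7 centromere and kinetochore genes SPC25 fell and 6 did not pass the test. The median log2 fold change of the 7 was -0.63. NDC80, NUF2, SPC24 and SPC25 encode the 4 subunits of the NDC80 complex, which holds microtubules, and their transcripts differed by unequal amounts. SPC25, on chromosome 2 (168834132 to 168913371), was at 32.8 and 28.0 TPM in the knockouts and at 57.0 and 59.9 TPM in the controls. Its knockout mean of 30.4 ± 3.35 TPM was 1.92-fold lower than the control mean of 58.5 ± 2.08 TPM (SD, n = 2 per group), and limma gave a log2 fold change of -0.93 with SE 0.11 (adjusted p = 0.016). The groups were far apart compared with the gap within either. SPC24, which pairs with SPC25 at the inner end of the complex, was at 86.1 and 80.5 TPM in the knockouts and at 86.4 and 84.8 TPM in the controls (log2 fold change -0.04, SE 0.07), and the groups overlapped. NUF2 was at 36.1 and 25.3 TPM in the knockouts and at 47.3 and 47.4 TPM in the controls (log2 fold change -0.63, adjusted p = 0.071). NDC80 was at 37.0 and 31.8 TPM in the knockouts and at 45.1 and 42.3 TPM in the controls (log2 fold change -0.34, adjusted p = 0.087). The groups were apart for both, with knockout 2 the lower library, and the differences between subunits were not tested.

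CENPA, the histone H3 variant that marks centromeres, was at 59.2 and 55.5 TPM in the knockouts and at 72.4 and 70.4 TPM in the controls (log2 fold change -0.31, adjusted p = 0.054). CENPF, a large protein of the outer kinetochore, was at 12.002 and 4.19 TPM in the knockouts and at 23.7 and 17.8 TPM in the controls (log2 fold change -1.39, SE 0.46, adjusted p = 0.096). CENPE, a kinesin that moves chromosomes to the metaphase plate, was listed at 0.745 and 0.485 TPM in the knockouts and at 2.18 and 1.68 TPM in the controls (log2 fold change -0.86, adjusted p = 0.057). All 3 were below both controls in both knockouts. CENPF and CENPE had large differences that did not pass the test, beside gaps between libraries of 1 group. CENPE was also the least abundant of the 34 genes per transcript length in the knockouts.

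In the anaphase-promoting complex pathway UBE2C rose and CDC20 did not pass the test. UBE2C, the ubiquitin-conjugating enzyme that starts chains for the complex, lies on chromosome 20 (45812576 to 45816957). It was at 362 and 345 TPM in the knockouts and at 293 and 297 TPM in the controls. The knockout mean of 353 ± 12.4 TPM was 1.20 times the control mean of 295 ± 3.04 TPM (SD, n = 2 per group), and limma gave a log2 fold change of 0.26 with SE 0.06 (adjusted p = 0.049). This call is close to the threshold and was lost under 12 of 16 alternatives, over which the adjusted p ran from 0.029 to 0.34. CDC20, the activator of the complex that the checkpoint restrains, was at 304 and 230 TPM in the knockouts and at 368 and 367 TPM in the controls. Its log2 fold change of -0.48 (adjusted p = 0.079) came with a large gap between the knockouts and nearly equal controls. UBE2S, the enzyme that elongates the chains UBE2C begins, was at 203 and 242 TPM in the knockouts and at 152 and 148 TPM in the controls, and it rose with a log2 fold change of 0.56 (adjusted p = 0.032).

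None of the 7 genes of spindle motors and the midzone passed the test, although ASPM and KIF11 had some of the largest differences among the 34. ASPM, a spindle pole protein, was at 5.56 and 1.83 TPM in the knockouts and at 13.8 and 9.30 TPM in the controls (log2 fold change -1.52, SE 0.44, adjusted p = 0.076). KIF11, the kinesin Eg5 that separates the spindle poles, was at 27.5 and 18.0 TPM in the knockouts and at 48.9 and 39.0 TPM in the controls (log2 fold change -0.94, SE 0.23, adjusted p = 0.054). For both genes the groups were apart and the libraries within each group were spread as well. KIF20A, a motor of the central spindle, was at 87.2 and 58.0 TPM in the knockouts and at 111 and 109.5 TPM in the controls (log2 fold change -0.62, adjusted p = 0.090). KIF23, the motor of the centralspindlin complex, was at 64.5 and 50.4 TPM in the knockouts and at 73.3 and 75.2 TPM in the controls (log2 fold change -0.38). KIF2C, which depolymerises microtubules at centromeres, was at 133 and 99.96 TPM in the knockouts and at 138 and 141 TPM in the controls (log2 fold change -0.27). In these 3 genes the controls were nearly equal and knockout 2 stood lowest. KIF4A, a chromosome-bound kinesin, was at 63.8 and 54.0 TPM in the knockouts and at 65.5 and 67.7 TPM in the controls (log2 fold change -0.18).

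PRC1, which bundles microtubules at the midzone, was listed at 1.76 and 1.359 TPM in the knockouts and at 1.33 and 1.40 TPM in the controls, with overlapping groups. This level is far below that of the other midzone genes. In GENCODE release 29, 58.4% of its exonic bases are shared with other genes, chiefly a protein-coding gene on the same strand. The value is therefore uncertain, and the part of the overlap in it was not tested. For other members the shared part was smaller, 15.9% for FOXM1, 12.5% for PLK1, 10.2% for BUB1B, 9.08% for CCNA2, 6.96% for CENPA and 5.05% for KIF20A, and under 5% for the rest. The use of strand in the counting is not given in the sources used here, so reads of overlapping genes cannot be told apart.

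TOP2A, the topoisomerase that untangles sister chromatids, was at 198 and 118 TPM in the knockouts and at 202 and 190.1 TPM in the controls (log2 fold change -0.35, adjusted p = 0.35). Knockout 1 lay between the controls, so the difference rests on knockout 2, and without it the log2 fold change was 0.02. MKI67, the Ki-67 protein that coats mitotic chromosomes and serves as a marker of dividing cells, was at 91.2 and 79.9 TPM in the knockouts and at 107 and 99.2 TPM in the controls (log2 fold change -0.27, adjusted p = 0.11).

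**Figure D3:**
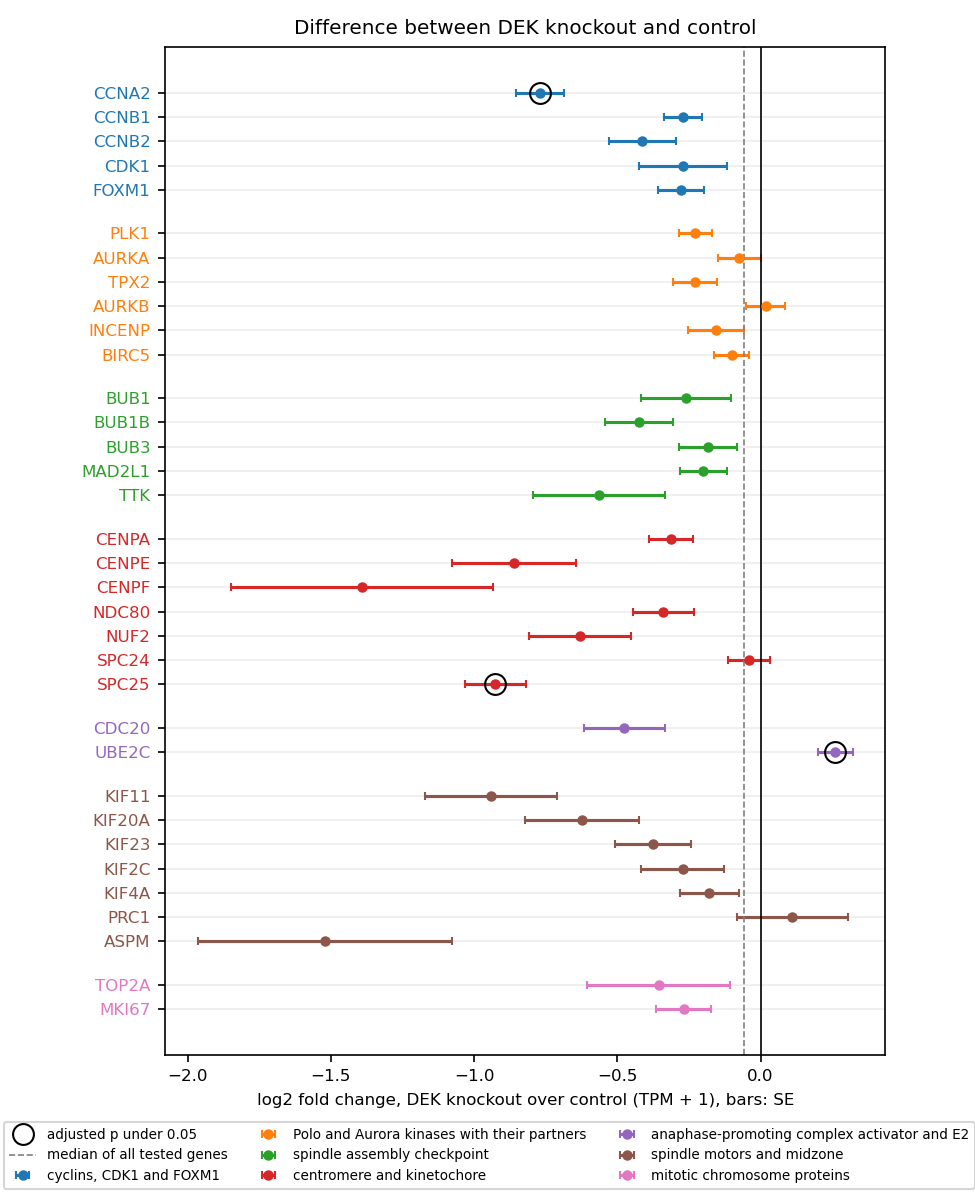
Log2 fold change of the 34 genes (DEK knockout over control, log2(TPM + 1)), with bars for the standard error and colours for the role. Circled points, CCNA2, SPC25 and UBE2C, passed an adjusted p of 0.05; the dashed line is the median of all tested genes, -0.06.

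The 2 knockout libraries differed in how low these genes were. Knockout 2 was below knockout 1 for 30 of the 34 genes, against 49.5% of all tested genes. The median difference of knockout 2 minus knockout 1 was -0.22 in log2(TPM + 1) over the 34 and 0.00 over all tested genes. Between the controls, control 2 was below control 1 for 21 of the 34, with a median of -0.03. The gap was widest for CENPF (-1.32) and ASPM (-1.21), and next for TOP2A (-0.75), TTK (-0.61), KIF11 (-0.59) and KIF20A (-0.58). CCNA2 (-0.02), PLK1 (-0.02), BUB3 (-0.02) and BIRC5 (0.00) were nearly level between the knockouts. Knockout 2 was also the library with less DEK mRNA, and a link between that and its lower values for these genes was not tested.

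Against the mean of the controls, the median was -0.22 in knockout 1 and -0.45 in knockout 2, with 30 and 32 of the 34 genes below 0. Without knockout 1, limma called 24 of the 34 lower, where 18.0% of all tested genes were called lower, and 1 higher, where the share was 15.4%. Without knockout 2 it called CCNA2, NUF2, SPC25, CDC20 and KIF20A lower, 5 of 34 where the share was 8.40%, and UBE2C higher, 1 of 34 where the share was 8.42%. Without control 1, or without control 2, it called 0 genes of 15815, against 2821 and 3194 genes at an unadjusted p under 0.05 without control 1 and without control 2, and 2 and 5 of the 34. The calls of CCNA2, SPC25, UBE2C and DEK thus did not hold when 1 control was left out. Each of these fits took its variance only from the group that kept 2 libraries. Its counts therefore also depend on how far apart that pair was. The median log2 fold change of the 34 was -0.29 without control 1 and -0.33 without control 2.

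**Figure D4:**
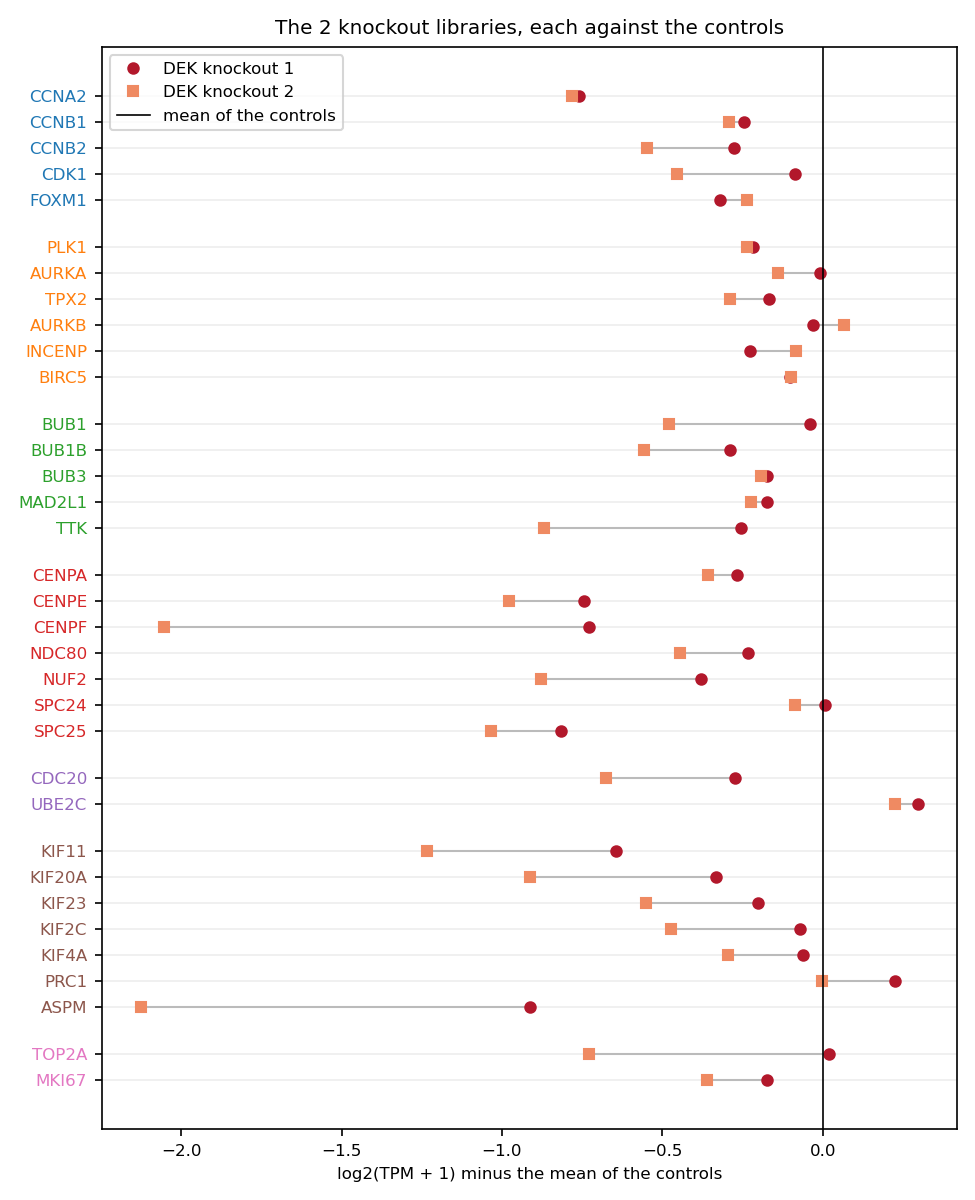
Log2(TPM + 1) of each knockout library minus the mean of the 2 controls, per gene, with a grey line joining the knockouts and gene names coloured by role. Knockout 2 (squares) lies left of knockout 1 (circles) for 30 of the 34 genes, most widely for CENPF and ASPM.

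Medians by chromosome also differed between the knockouts. The median of knockout 2 minus knockout 1 over the tested genes of chromosome 1 was -0.17, the lowest of the chromosomes, and chromosome 7, where none of the 34 genes lies, was highest at 0.21. The 5 members on chromosome 1 are CDC20, KIF2C, NUF2, ASPM and CENPF, and their median gap was -0.50. On chromosomes with a median near 0 the gaps of the members varied. The median was -0.27 for the 4 on chromosome 15, and TTK on chromosome 6 was at -0.61. Of the 2 on chromosome 5, with a median of -0.31, KIF20A was at -0.58 and CCNB1 at -0.05. FOXM1 on chromosome 12 went the other way, at 0.08. With the median of each chromosome subtracted in each library, CCNA2 and SPC25 were called lower, 2 of 34 where 7.12% of all tested genes were, and 0 of 34 were called higher, where 10.9% were. The median of the 34 was then -0.21. The log2 fold changes of the 5 members on chromosome 1 were -1.35 for ASPM, -1.23 for CENPF, -0.46 for NUF2, -0.31 for CDC20 and -0.11 for KIF2C. The part of chromosome copy number in the result was not tested.

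Base composition moved with the differences too. Of the 34 genes, 13 had transcripts in the lowest of 4 equal bins of GC content among tested genes, at most 42.3% GC, and 3 in the highest bin. Those 13 had a median log2 fold change of -0.63, against -0.30 for all tested genes of that bin. In the next bin 12 members had a median of -0.27, against -0.08 for all its genes. In the upper bins the 6 and 3 members had medians of -0.07 and -0.23, against 0.04 and 0.11. The median of the members was thus below that of their bin in each of the 4 bins, while BUB3, MAD2L1, CDK1, AURKA, PRC1 and UBE2C lay above the median of their bin. Across the 34 genes, Pearson's r between GC content and log2 fold change was 0.53 and Spearman's rho 0.57, against 0.27 and 0.35 across 15613 tested genes. These points share the same libraries, and the values are a description. The gap between the knockouts ran the same way (r = 0.50 over the 34), and so did the gap between the controls (r = 0.38). ASPM, CENPF, CENPE and KIF11, which have the largest differences that did not pass the test, have transcripts of 37.1%, 40.8%, 35.3% and 38.3% GC, and the first 3 are among the longest of the 34, with 10887, 10307 and 8612 bases.

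With the GC trend of each library removed, the median of the 34 was -0.26 against 0.00 over all tested genes, and 29 of the 34 stayed below 0. CCNA2 (-0.58), SPC25 (-0.65), PLK1 (-0.32) and FOXM1 (-0.36) were then called lower, which is 4 of 34 where 7.40% of all tested genes were, and 0 were called higher, where 9.04% were; UBE2C was at 0.24 (adjusted p = 0.073). CDK1, BUB3 and MAD2L1 turned to log2 fold changes of 0.11, 0.03 and 0.10, and TOP2A moved to -0.05. The part of library preparation in the GC trend was not tested.

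**Figure D5:**
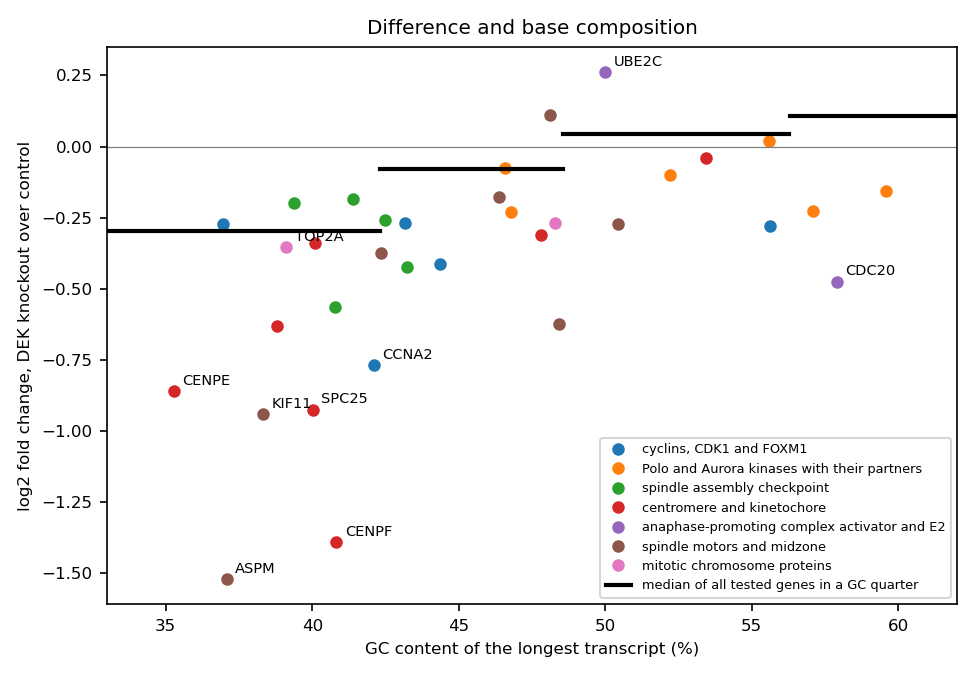
Log2 fold change of the 34 genes against the GC content of their longest transcript, coloured by role. Black lines are medians of all tested genes in 4 equal bins of GC content, from -0.30 in the lowest to 0.11 in the highest; the 13 members of the lowest bin are all below 0.

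Of 176 other genes in 12 lists of the cell cycle, 171 were tested, 29 fell and 5 rose, with a median log2 fold change of -0.31. Over all tested genes 8.67% were called lower and 9.06% higher, and the counts of single lists, such as 1 of 16 or 3 of 28, are often near those shares. Of the inner kinetochore 1 of 16 genes fell, CENPI (-0.47), and of 4 loading factors of CENPA 1 fell, OIP5 (-0.99), with 21.1 and 20.2 TPM in the knockouts and 39.7 and 44.5 TPM in the controls. Among 15 tested genes of the outer kinetochore and checkpoint 3 fell. They were SKA2 (-0.81) of the SKA complex, which tracks microtubule ends, ZWINT (-0.47) and PMF1 (-0.62). None of 4 genes of the Aurora B complex and the shugoshins passed limma, also at an unadjusted p under 0.05, where the count was 0.

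Cohesin and separase, which hold and release sister chromatids, had the lowest median of these lists, -0.65, and 4 of 15 genes fell. RAD21, its cleavable subunit, was at 53.6 and 49.2 TPM in the knockouts and at 81.0 and 83.04 TPM in the controls (log2 fold change -0.67, adjusted p = 0.017). The regulators PDS5A (-0.60), ESCO2 (-0.74) and WAPL (-0.46) fell as well. All 4 have transcripts in the lowest GC bin, where the median of all tested genes was -0.30. Over the 16 alternatives their weakest log2 fold changes were -0.42 for RAD21, -0.38 for PDS5A, -0.40 for ESCO2 and -0.22 for WAPL. Of 8 condensin genes NCAPG fell (-0.78, limma adjusted p = 0.050). This call is close to the threshold and held under 4 of 16 alternatives. In the anaphase-promoting complex list 3 of 17 fell, ANAPC15 (-0.80), ANAPC4 (-0.63) and the inhibitor FBXO5 (-0.45), and UBE2S rose. FBXO5 and ANAPC4 have transcripts of 34.2% and 36.6% GC, in the lowest GC bin, and ANAPC15 one of 48.7%. Their weakest log2 fold changes over the 16 alternatives were -0.0055 for FBXO5, -0.24 for ANAPC4 and -0.64 for ANAPC15. The part of GC content in these falls was not tested.

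Of 14 genes of mitotic entry 4 fell. They were the phosphatases CDC25C (-0.46) and CDC25B (-0.35), which activate CDK1, the PLK1 activator BORA (-0.54) and the ubiquitin ligase subunit CCNF (-0.34). In the spindle and cytokinesis list 3 of 28 tested genes fell, ANLN (-0.95), KIF22 (-0.31) and NUMA1 (-0.59). ANLN, the contractile ring protein anillin, was at 119 and 83.7 TPM in the knockouts and at 193 and 195 TPM in the controls. Of 20 replication genes MCM6 (-0.68), TYMS (-0.67) and ORC1 (-0.46) fell. Many of these genes share exons with a neighbour, such as OIP5 (38.0% of exonic bases), BORA (37.0%), NCAPG (33.1%) and TYMS (46.6%), which makes their values uncertain.

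Among 18 factors of the DREAM, MuvB and E2F-RB group 2 fell and 1 rose. E2F8, a repressor, was at 6.63 and 6.32 TPM in the knockouts and at 15.1 and 12.9 TPM in the controls (log2 fold change -0.998). Its relative E2F7 was at 34.2 and 44.4 TPM in the knockouts and at 21.5 and 21.0 TPM in the controls (log2 fold change 0.84). RBBP4, a histone-binding subunit of MuvB, fell (-0.80). These related repressors thus moved in opposite directions.

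Of 12 tested genes of the G1 list 3 rose and 4 fell, with a median of -0.03, and its difference from the mitotic genes was not tested. CDKN1A, which encodes the CDK inhibitor p21, was at 732 and 739 TPM in the knockouts and at 324 and 315 TPM in the controls (log2 fold change 1.20, SE 0.06, adjusted p = 0.0057). CCND1, cyclin D1, was at 743 and 623 TPM in the knockouts and at 308 and 311 TPM in the controls (log2 fold change 1.13), and CCND3, cyclin D3, also rose (0.97). CDKN2C, the CDK4 and CDK6 inhibitor p18, fell (-0.68). So did CDKN1B (-0.86), which encodes p27, CDK4 (-0.44) and CCNE2 (-0.92), these 3 named after their values were seen. CDK4 and CCNE2 share 43.2% and 37.1% of their exonic bases with other genes, which makes their values uncertain.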

How the data were processed

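RNA was isolated with TRIzol for mRNA libraries, per the labels' protocols. The authors deposited TPM for 59409 symbols, 1 column per library. The build hg38 is named in the submitters' processing notes, beside DESeq2 1.36.0, featureCounts 2.0.1, STAR 2.7.8a and cutadapt 1.18, without roles. Neither the annotation nor gene lengths nor the use of strand is given in the sources used here. Positions, GC content and exon overlaps are from GENCODE release 29 (GRCh38), matched for 54330 symbols by name and 2194 through current symbols.

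The 15815 genes that reached 1 TPM in 2 or more libraries were fitted as log2(TPM + 1) with limma 3.58.1 in R 4.3.3, with group as the only term, a variance prior following mean expression and Benjamini-Hochberg adjustment over all tested genes at 0.05. An exact permutation test with 2 against 2 libraries has a smallest p of 0.33 and was not run. Step sizes of low TPM values gave depth; of values under 200 estimated reads, 54.0% to 55.9% were whole to within 0.02, so depth is approximate. The fit was run on simulated data with planted log2 effects of 1 and 2, and it recovered 100% of either size. Those data held no GC, chromosome or library trend and no smaller effects. The run therefore cannot show how the fit performs on the differences described here.

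The members, lists and tests were chosen with earlier results of these data known. Beside the members and DEK, at most 4 genes past the threshold per list were named, by smallest p. Promoter stretches were to be shown for members past the threshold, CCNB1 and CDC20; no window was found for UBE2C. Alternatives covered the pseudocount, filter, scaling, variance prior, replicate block, GC trend, chromosome medians, threshold and leaving out each library. A block together with the GC correction was added after seeing the data.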

Additional observations from a re-analysis of the deposited data

How the results depend on the processing

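Of 15815 tested genes, 1433 rose and 1371 fell, 2804 in all; with median-ratio scaling the split was 1588 against 955. Against 2 of the 34 called lower, the count was 0 with no filter on low values (0% of all tested genes lower), 5 of 32 tested with a filter at 5 TPM (14.6%), 4 with quantile normalization (7.45%), 6 without mitochondrial genome genes (10.04%) and 16 at an adjusted p under 0.10 (17.3%). The 1 called higher was 0 with a pseudocount of 0.1 or 5, with no filter, quantile normalization, no mitochondrial genome genes, a constant variance prior, the GC trend removed or chromosome medians subtracted. With no filter 26 genes were called in all, with a constant prior 1437 and at 0.10 5066. Of the 12 other lists 34 genes were called, against 1 with no filter, 52 with a filter at 5 TPM, 8 with a constant prior and 74 at 0.10. That count was 24 with chromosome medians subtracted and 23 with median-ratio scaling. With the GC trend removed it was 26, of which 21 were lower and 5 higher. The shares of all tested genes were then 7.40% lower and 9.04% higher, and 4 of the 34 members were called lower. Some calls in the other lists held under few of the 16 alternatives. NCAPG was called in 4, FBXO5 and CCNE2 in 5, and ORC1, WAPL and NUMA1 in 6.

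Leaving out each library gave 0 to 5289 calls in all, 0 to 24 of the 34 lower, 0 to 1 higher, 0 to 94 in the other lists and medians of the 34 from -0.45 to -0.22, where a lone library is assumed to vary like the other group. Replicate numbers are shared between groups. Deviations of same-numbered libraries correlated at 0.099. With 2 libraries a group this value cannot decide whether the numbers pair the libraries. With a replicate block 5 of the 34 were called lower, where 9.79% of all tested genes were, and 0 higher, where 8.998% were. They were CCNA2, SPC25, CENPF, KIF11 and ASPM. With the block and the GC correction together, 1824 genes were called in all, 4 of the 34 lower (4.51% of all tested genes), 0 higher (7.02%) and 18 in the other lists.

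Signs reversed in 7 of the 34 genes, some of them, such as CDK1 and TOP2A, not near 0. SPC24 went to 0.020 with median-ratio scaling. AURKB went to -0.00063 with quantile normalization, -0.012 without mitochondrial genome genes and -0.0040 with chromosome medians subtracted. With the GC trend removed, with or without the block, AURKB went to -0.064, CDK1 to 0.11, BUB3 to 0.035 and MAD2L1 to 0.0999. Leaving out each library gave -0.031 to 0.066 for AURKB, -0.088 to 0.0077 for SPC24, -0.0017 to 0.22 for PRC1 and -0.73 to 0.019 for TOP2A. CCNA2 and SPC25 were each called in 13 of 16 alternatives, and lost without filter or without either control. The cause was not tested.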

Other observations

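Other proliferation genes were listed at levels near 0 in cells that express the rest of the programme. NUSAP1, a spindle-associated protein, was listed at 0.101 and 0.0301 TPM in the knockouts and at 0.0930 and 0.209 TPM in the controls. In GENCODE release 29, 62.2% of its exonic bases are shared with another protein-coding gene on the same strand. HAUS7, an augmin subunit, was at 0.171 and 0.190 TPM in the knockouts and at 0.117 and 0.339 TPM in the controls, with 35.6% of its exonic bases shared with TREX2. MAD1L1, the checkpoint partner of MAD2, was listed at 0 in both knockouts and at 0 and 0.0301 TPM in the controls, and no other gene of that release shares its exons. The part of overlapping annotation in these values was not tested.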
